A study of Mus musculus with 12 samples.

Results

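The genes described are 9 semaphorins, neuropilins and plexins of axon pre-target sorting, namely the ligands Sema3a, Sema3f and Sema7a, the co-receptors Nrp1 and Nrp2, and the receptors Plxna1, Plxna3, Plxna4 and Plxnc1. They were listed by symbol, with no cut on their values, but with earlier results of these data known. They are 9 of the 19938 genes that had a probe set with a single symbol on the array. Each had 1 such probe set. Expression was measured in the main olfactory epithelium (MOE), the sensory tissue of the nose, on 12 Affymetrix Mouse Gene ST arrays, 3 in each of 4 groups. The groups were the closed and the open side of the MOE of H2be-KO mice, and the closed and the open side of the MOE of WT mice. All mice had undergone unilateral naris occlusion (UNO), in which the right nostril was sealed by electrocautery at 2 weeks of age, and were examined at 5 weeks of age after 3 weeks of closure. An age tag in the labels reads 6 months instead. The open side is therefore a side of an occluded mouse and not a nose left untreated. In H2be-KO mice, the coding sequence of the histone variant gene H2be is replaced with one for GAP43-mCherry throughout the animal, and founders were crossed to C57Bl/6. Per the labels, each sample pooled tissue of 2 mice, 1 female and 1 male, and the study's legends give another number. The p-values measure the spread between these pooled samples.

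Olfactory sensory neurons (OSNs) send axons to the olfactory bulb, where axons of neurons with the same odorant receptor meet in a glomerulus. Class 3 semaphorins are secreted ligands that bind a neuropilin, which signals through a plexin of the A type. In the mouse, Sema3a and Nrp1 sort axons along the anterior-posterior axis of the bulb, Sema3f and Nrp2 along the dorsal-ventral axis, and Sema7a is a membrane-anchored semaphorin whose receptors are Plxnc1 and beta1 integrins.

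H2be itself, the deleted gene, read 11.31 to 11.46 log2 in the 6 KO arrays and 11.55 to 11.75 in the 6 WT arrays, without overlap. The KO-minus-WT difference was -0.28 on the closed side and -0.26 on the open side, and it did not pass on either (limma adjusted p = 0.999 and 0.641). Where the probes lie in the gene is not given in the sources used here, so this is a weak check of the labels. Array medians lay between 7.21 and 7.30 log2, and arrays of one group correlated across probe sets at r = 0.965 to 0.978, against 0.963 to 0.977 for arrays of different groups. The markers of mature OSNs were among the brighter probe sets of the lists, with Omp at 12.6 and Stoml3 at 12.5 on average, and markers of stroma and bone, such as Col1a1 and Ibsp at 12.2 and 11.7, were bright too. The samples were thus mixed tissue, in which fewer cells of a type and less RNA per cell cannot be told apart.

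Promoters are shown for Sema7a, for Sema3e and for Plxnd1, the matched genes whose level differed most between the sides. Each run is the 250 bases before the gene's start in RefSeq on GRCm38.p6, 5′ to 3′ on the gene's strand, and capitals mark GC boxes, the hexamer GGGCGG or its complement. Sema7a lies at chr9:57939862-57940111 on the plus strand, Sema3e at chr5:14025026-14025275 on the plus strand, and Plxnd1 at chr6:115995006-115995255 on the minus strand.
Sema7a: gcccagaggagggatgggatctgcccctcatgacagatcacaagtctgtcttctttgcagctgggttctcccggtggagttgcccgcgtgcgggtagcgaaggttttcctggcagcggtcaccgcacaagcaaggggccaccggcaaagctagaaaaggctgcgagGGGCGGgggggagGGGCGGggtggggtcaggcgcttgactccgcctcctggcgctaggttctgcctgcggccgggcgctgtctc
Sema3e: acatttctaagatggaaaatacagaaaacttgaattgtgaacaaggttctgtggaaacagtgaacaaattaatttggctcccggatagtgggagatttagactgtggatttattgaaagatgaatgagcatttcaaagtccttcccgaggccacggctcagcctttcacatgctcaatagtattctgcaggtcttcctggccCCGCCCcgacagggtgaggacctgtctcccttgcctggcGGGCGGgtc
Plxnd1: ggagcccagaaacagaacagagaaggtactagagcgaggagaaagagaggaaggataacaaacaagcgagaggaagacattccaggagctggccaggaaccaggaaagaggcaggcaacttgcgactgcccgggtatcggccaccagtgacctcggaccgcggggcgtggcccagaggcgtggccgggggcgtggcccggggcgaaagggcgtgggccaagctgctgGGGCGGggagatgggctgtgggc
Of the 9 genes, 6 had a window in the table. The Sema7a window was 66.4% G or C with 17 CpG dinucleotides, the Plxnd1 window 64.8% with 16, and the Sema3e window 48.0% with 7. GC boxes numbered 2 before Sema7a, 2 before Sema3e and 1 before Plxnd1, 5 before Nrp2, 4 before Plxnc1, 1 each before Nrp1 and Plxna3, and 0 before Sema3a, and 32.7% of all 32851 windows held at least 1. On both strands, the cAMP response element TGACGTCA (1.55% of windows), its nested half-site TGACG (17.8%), the Ebf motif (TCCC, any 2 bases, GGGA, in 0.779%) and the AP-1 motif TGANTCA (6.75%) did not occur in the window of any of the 6 genes, nor in those of Sema3e and Plxnd1. These are matches of letters and not binding sites.

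Sema7a showed by far the largest difference between the sides of the 9 genes. Its closed side was 2.11-fold below the open side in KO mice and 2.29-fold below it in WT mice. The closed side of KO mice read 9.46, 9.47 and 9.36 log2 in samples 1 to 3, and their open side 10.60, 10.46 and 10.47. The closed side of WT mice read 9.52, 9.35 and 9.60 log2, and their open side 10.65, 10.64 and 10.79. Every closed sample lay below every open sample of either genotype, with a wide gap between them. The means were 9.43 ± 0.059 on the closed side and 10.51 ± 0.076 on the open side in KO mice (SD, n = 3 each), and 9.49 ± 0.12 on the closed side and 10.69 ± 0.083 on the open side in WT mice. The closed-minus-open difference was -1.08 in KO mice (SE 0.092, limma adjusted p = 0.000271) and -1.20 in WT mice (SE 0.092, limma adjusted p = 0.000157). Averaged over both genotypes it was -1.14 (SE 0.065, limma adjusted p = 3.39e-06). Among the 32615 probe sets tested, Sema7a ranked 11 by p in KO mice, 6 in WT mice and 11 in the average.

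**Figure D1:**
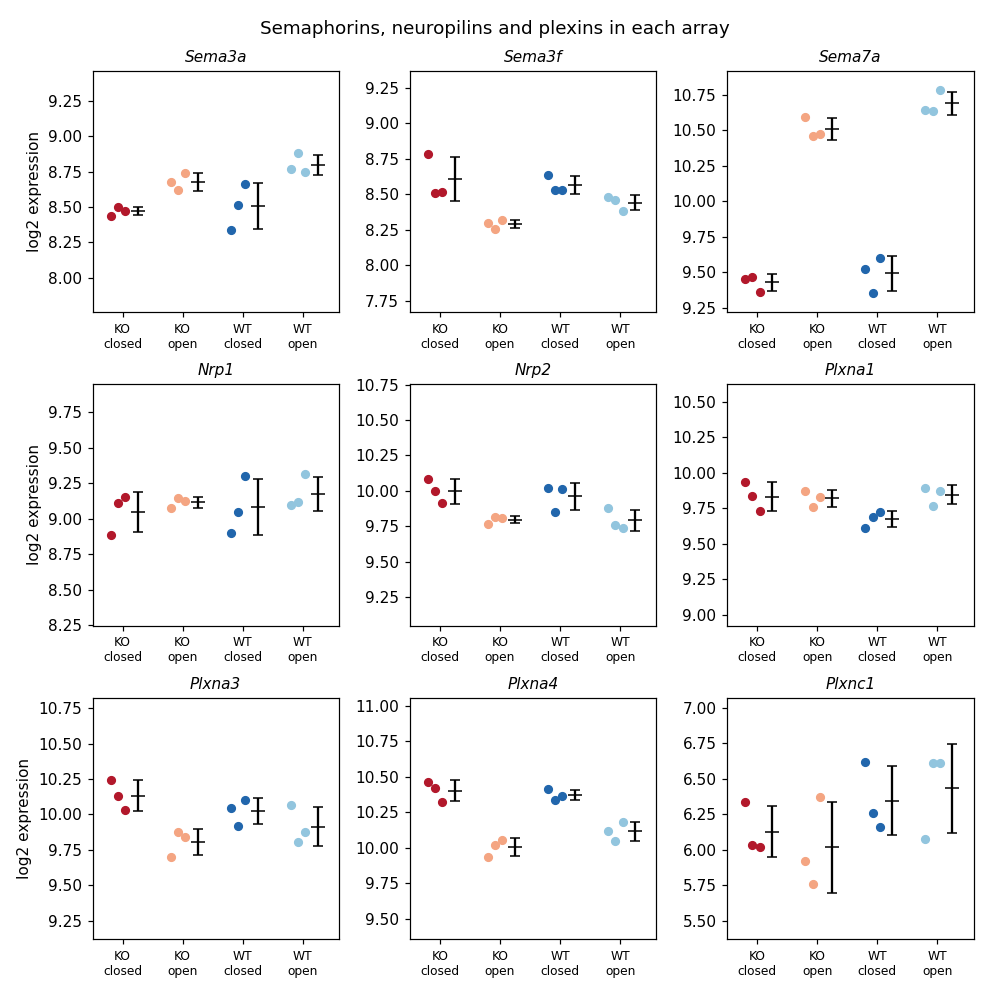
Log2 expression of the 9 genes, 1 panel per gene, with 1 point per array and the mean with its SD (n = 3) beside each group. The panels differ in level and share the length of the scale. Sema7a is the gene whose closed groups (9.35 to 9.60) lie farthest below its open groups (10.46 to 10.79), while Nrp1 and Plxnc1 overlap throughout.

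The secreted ligands differed less. Sema3a, the repellent ligand of Nrp1, read 8.44, 8.50 and 8.47 log2 on the closed side and 8.67, 8.62 and 8.74 on the open side of KO mice. In WT mice it read 8.34, 8.51 and 8.66 on the closed side and 8.76, 8.88 and 8.75 on the open side. The closed samples lay below the open ones of their genotype in both, without overlap. The difference was -0.21 in KO mice and -0.29 in WT mice, with -0.25 on average (SE 0.067, 95% interval -0.40 to -0.10), which did not pass (limma adjusted p = 0.482, 0.281 and 0.0837). The average did pass without WT closed sample 3, at -0.29 (limma adjusted p = 0.0428), with only probe sets of mean log2 above 7 tested (0.0308) and with a trended, robust variance (0.0372).

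Sema3f, the repellent ligand of Nrp2, lay the other way. It read 8.78, 8.51 and 8.52 log2 on the closed side and 8.30, 8.26 and 8.32 on the open side of KO mice. In WT mice it read 8.64, 8.53 and 8.53 on the closed side and 8.48, 8.46 and 8.38 on the open side. The groups did not overlap in either genotype. The difference was 0.31 in KO mice, 0.12 in WT mice and 0.22 on average (SE 0.065, 95% interval 0.077 to 0.36), and none of them passed (limma adjusted p = 0.194, 0.794 and 0.122).

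The neuropilins are the ligand-binding co-receptors for these secreted semaphorins. Nrp1 read 8.89, 9.11 and 9.15 log2 on the closed side and 9.07, 9.14 and 9.12 on the open side of KO mice, and 8.90, 9.05 and 9.30 on the closed side and 9.09, 9.12 and 9.31 on the open side of WT mice. The sides overlapped in both genotypes, and the average difference of -0.08 had a 95% interval of -0.26 to 0.10 (limma adjusted p = 0.781). Nrp2 read 10.09, 9.998 and 9.91 log2 on the closed side and 9.77, 9.81 and 9.81 on the open side of KO mice, without overlap. In WT mice it read 10.02, 9.85 and 10.01 on the closed side and 9.88, 9.76 and 9.74 on the open side, where the lowest closed sample fell below the highest open one. The Nrp2 difference was 0.20 in KO mice, 0.17 in WT mice and 0.19 on average (SE 0.061, 95% interval 0.052 to 0.32), and none passed (limma adjusted p = 0.433, 0.603 and 0.171), although the average did with a trended, robust variance (0.0436).

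Plxna4, an A-type plexin that signals for class 3 and class 6 semaphorins, was higher on the closed side. It read 10.47, 10.42 and 10.32 log2 on the closed side and 9.94, 10.02 and 10.06 on the open side of KO mice, and 10.41, 10.34 and 10.37 on the closed side and 10.12, 10.05 and 10.18 on the open side of WT mice. Every closed sample lay above every open sample, across both genotypes. The difference was 0.40 in KO mice (SE 0.081, 1.32-fold, limma adjusted p = 0.041), 0.26 in WT mice (SE 0.081, limma adjusted p = 0.258) and 0.33 on average (SE 0.057, 1.26-fold, limma adjusted p = 0.00857). The call in KO mice is not stable, since it was lost without any single one of the 12 arrays, KO or WT (0.36 to 0.44, limma adjusted p = 0.0548 to 0.207), after centring each array on its median (0.0645) and with the KO arrays fitted alone (0.177). The call on the average held without each array in turn (limma adjusted p = 0.0159 to 0.0338).

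Plxna3, the A-type plexin that signals for Sema3f with Nrp2, read 10.24, 10.13 and 10.03 log2 on the closed side and 9.70, 9.88 and 9.84 on the open side of KO mice, without overlap. In WT mice it read 10.05, 9.92 and 10.10 on the closed side and 10.07, 9.80 and 9.87 on the open side, where the sides overlapped. The difference was 0.33 in KO mice, 0.11 in WT mice and 0.22 on average (SE 0.071, 95% interval 0.060 to 0.37), and none passed (limma adjusted p = 0.226, 0.866 and 0.172). With a trended, robust variance, the KO difference and the average did (limma adjusted p = 0.0266 and 0.0232).

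Plxna1, the A-type plexin that pairs with Nrp1 for Sema3a, read 9.93, 9.83 and 9.73 log2 on the closed side and 9.87, 9.76 and 9.83 on the open side of KO mice. In WT mice it read 9.61, 9.68 and 9.72 on the closed side and 9.89, 9.77 and 9.87 on the open side. The sides overlapped in KO mice, whereas in WT mice every closed sample lay below every open one. The difference was 0.01 in KO mice, -0.17 in WT mice and -0.08 on average (95% interval -0.21 to 0.053), and none passed (limma adjusted p = 0.984, 0.596 and 0.663).

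Plxnc1, the receptor for Sema7a, was the dimmest of the 9 probe sets and the one with the widest spread. It read 6.33, 6.03 and 6.02 log2 on the closed side and 5.92, 5.75 and 6.37 on the open side of KO mice, and 6.62, 6.26 and 6.16 on the closed side and 6.07, 6.61 and 6.61 on the open side of WT mice. The sides overlapped in both genotypes. The average difference was 0.01 with a 95% interval of -0.29 to 0.32 (limma adjusted p = 0.985), so a difference of either direction within that interval is not excluded. Itgb1, the beta1 integrin through which Sema7a also acts, differed by 0.00 on average (95% interval -0.15 to 0.15, limma adjusted p = 0.993).

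In KO mice, 1 of the 9 genes (Plxna4) was called higher and 1 (Sema7a) lower on the closed side, where 0.705% of all probe sets were called higher and 0.34% lower. In WT mice, 0 were called higher and 1 (Sema7a) lower, where 0.475% of all probe sets were called higher and 0.38% lower. On average over the genotypes, 1 (Plxna4) was called higher and 1 (Sema7a) lower, against 1.66% higher and 1.23% lower of all probe sets. At an unadjusted p under 0.05, 5 of the 9 differed in KO mice, where 10.5% of all probe sets did, 3 in WT mice (9.34%) and 6 on average (13.2%). The sides did not overlap for 6 of the 9 genes in KO mice and for 5 in WT mice, against 17.3% and 13.2% of all probe sets. For 4 of the 9, Sema7a, Sema3a, Sema3f and Plxna4, they did not overlap in either genotype and lay in the same direction, as did 4.82% of all probe sets. Since the genes were listed with earlier results of these data known, these counts beside the shares are descriptive and carry no test. The median difference of the 9 was 0.11 in KO mice, -0.09 in WT mice and 0.01 on average, beside 0.02, -0.01 and 0.00 over all probe sets, and the genes did not share a direction, since 5 were above 0 and 4 below on average.

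**Figure D2:**
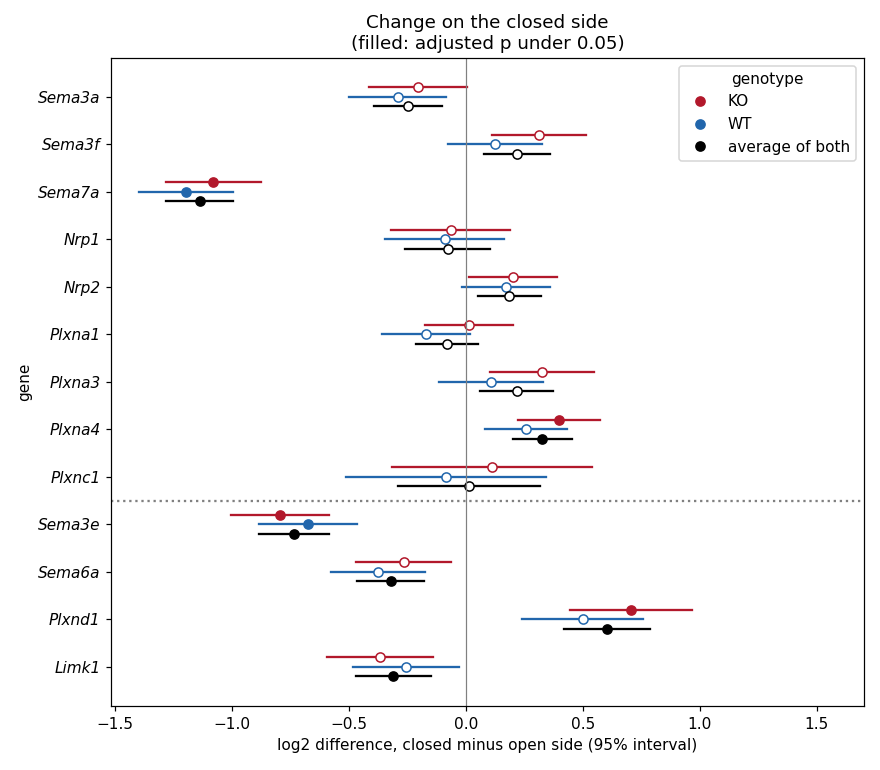
Closed-minus-open log2 difference (x axis) of the 9 genes above the dotted line and of the other called pathway genes below it, in KO mice, in WT mice and on average, with 95% intervals. Sema7a stands at -1.08, -1.20 and -1.14, far from the intervals of the other 8 genes, and filled points mark limma adjusted p under 0.05.

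**Figure D3:**
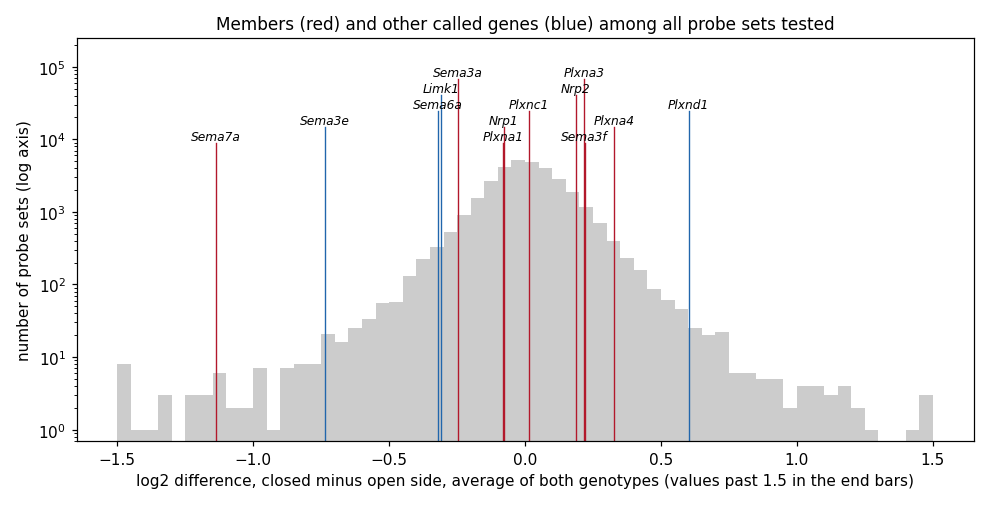
Number of probe sets (log axis) by closed-minus-open log2 difference averaged over the genotypes, for all 32615 probe sets tested. Vertical lines mark the 9 genes (red) and 4 further pathway genes (blue), and Sema7a at -1.14 lies in the sparse left tail while Nrp1, Plxna1 and Plxnc1 lie in the centre.

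Whether the loss of H2be altered these genes was asked on each side. On the closed side, 0 of the 9 genes differed between KO and WT mice by the adjusted test and 0 at an unadjusted p under 0.05, where 0.0245% and 4.26% of all probe sets did. On the open side, 0 passed by either, where 0.0215% and 6.67% of all probe sets did. Plxna1 was the 1 gene without overlap on the closed side (8.82% of all probe sets), at 9.73 to 9.93 in KO and 9.61 to 9.72 in WT samples, a difference of 0.16 (95% interval -0.03 to 0.35, limma adjusted p = 0.999). On the open side, 3 genes did not overlap (12.4% of all probe sets), and each was lower in KO samples. Sema7a differed by -0.18 (95% interval -0.38 to 0.020), Sema3f by -0.15 (-0.35 to 0.051) and Sema3a by -0.12 (-0.33 to 0.087), with limma adjusted p = 0.787, 0.835 and 0.877. Of the 9 genes, 8 lay below 0 on the open side, with a median of -0.11 beside -0.04 over all probe sets. Among 51 other genes of the pathway, described below, 40 lay below 0 and 11 above, with a median of -0.09.

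The side difference was also compared between the genotypes. No gene of the 9 passed this test of the interaction, neither adjusted nor unadjusted, where 0% and 4.01% of all probe sets did by limma. For Sema7a the KO-minus-WT difference of the side differences was 0.12 (95% interval -0.17 to 0.40), and for Plxna4 it was 0.14 (-0.11 to 0.39). The widest interval was that of Plxnc1, from -0.41 to 0.80. The 9 estimates were all above 0, between 0.03 and 0.22 with a median of 0.14, beside a median of 0.03 over all probe sets. Among 51 other genes of the pathway, described below, 37 estimates were above 0 and 14 below, with a median of 0.08. The comparisons on each side and the interaction share samples, so that these directions are not separate observations.

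Of 53 other genes of the pathway, 51 had a single-symbol probe set above the filter, and 4 of them were called in a comparison of the sides. They were 17 further semaphorins, 5 further plexins and 29 partners and signalling proteins, such as L1cam, a co-receptor of Nrp1, and Dpysl2, the collapsin response mediator. In KO mice, 1 was called higher and 1 lower for the closed side, in WT mice 0 higher and 1 lower, and on average 1 higher and 3 lower. The shares of all probe sets were 0.705% and 0.34% in KO mice, 0.475% and 0.38% in WT mice, and 1.66% and 1.23% on average. None was called between the genotypes or for the interaction by limma, where 3 on the closed side, 3 on the open side and 0 for the interaction had an unadjusted p under 0.05, beside 4.26%, 6.67% and 4.01% of all probe sets. The median difference of the 51 on average over the genotypes was 0.00, as over all probe sets.

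Sema3e, a secreted class 3 semaphorin that binds Plxnd1 without a neuropilin, was lower on the closed side. It read 8.02, 8.07 and 8.18 log2 on the closed side and 8.85, 8.88 and 8.92 on the open side of KO mice, and 8.44, 8.26 and 8.24 on the closed side and 9.14, 8.94 and 8.88 on the open side of WT mice. All closed samples lay below all open samples. The difference was -0.79 in KO mice (SE 0.096, limma adjusted p = 0.00225), -0.68 in WT mice (SE 0.096, limma adjusted p = 0.00686) and -0.73 on average, 1.66-fold lower (limma adjusted p = 0.000117). With the WT arrays fitted alone, the WT difference did not pass (limma adjusted p = 0.145).

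Plxnd1, the receptor for Sema3e, lay the opposite way. It read 8.22, 8.17 and 8.04 log2 on the closed side and 7.49, 7.33 and 7.50 on the open side of KO mice, and 8.36, 7.95 and 8.03 on the closed side and 7.76, 7.54 and 7.55 on the open side of WT mice. Again no closed sample overlapped an open one. The difference was 0.71 in KO mice (SE 0.12, limma adjusted p = 0.0171), 0.50 in WT mice (SE 0.12, limma adjusted p = 0.0998) and 0.60 on average, 1.52-fold higher (limma adjusted p = 0.00205). The WT difference passed with only probe sets of mean log2 above 7 tested (limma adjusted p = 0.0288) and with a trended, robust variance (0.0331). The KO call was lost without KO closed sample 1 or 2 or KO open sample 1 or 2 (0.65 to 0.73, limma adjusted p = 0.0678 to 0.0856).

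Sema6a, a transmembrane semaphorin that binds Plxna2 and Plxna4, was called lower on average. It read 9.34, 9.16 and 9.12 log2 on the closed side and 9.43, 9.50 and 9.48 on the open side of KO mice, and 9.38, 9.19 and 9.19 on the closed side and 9.72, 9.57 and 9.61 on the open side of WT mice, with no overlap of the sides. The average difference was -0.32 (SE 0.066, 1.25-fold lower, limma adjusted p = 0.0221), and it held without KO closed sample 1, WT closed sample 1 or WT open sample 2 but was lost without any of the other 9 arrays (limma adjusted p up to 0.0659). The difference was -0.27 in KO mice and -0.38 in WT mice (limma adjusted p = 0.299 and 0.114), and that in WT mice passed with only probe sets of mean log2 above 7 tested (0.0379) and with a trended, robust variance (0.011).

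Limk1, a kinase that phosphorylates cofilin downstream of semaphorin receptors, was close to the threshold. It read 8.30, 8.11 and 8.31 log2 on the closed side and 8.60, 8.60 and 8.61 on the open side of KO mice, and 8.35, 8.34 and 8.26 on the closed side and 8.44, 8.48 and 8.79 on the open side of WT mice. Closed samples lay below open ones in every case. The average difference was -0.31 (SE 0.073, limma adjusted p = 0.0459), a call that was lost without any array but WT open sample 1 (limma adjusted p up to 0.115).

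**Figure D4:**
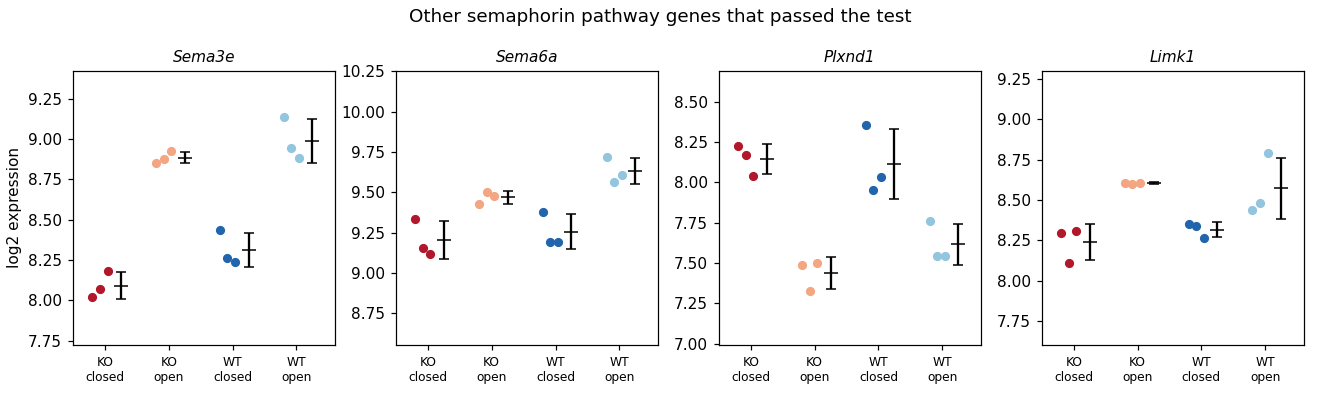
Log2 expression of the 4 other pathway genes that passed the test, 1 panel per gene, with 1 point per array and the mean with its SD (n = 3) beside each group. Sema3e, Sema6a and Limk1 are lower on the closed side and Plxnd1 is higher, without overlap of the sides in either genotype.

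Taking the 9 genes and the others by class, on average over the genotypes, of 7 class 3 semaphorins, 1 (Sema3e) was called lower. Of 6 class 4 and 2 class 5 semaphorins, 0 were called, and their differences ran between -0.09 and 0.36. Of 4 class 6 semaphorins, 1 (Sema6a) was called lower, and the 1 class 7 semaphorin, Sema7a, was called lower. Of 4 A-type plexins, 1 (Plxna4) was called higher, of 3 B-type plexins 0 were called, and Plxnd1 was called higher. Together, 3 of 20 semaphorins were called lower and 0 higher, and 2 of 9 plexins were called higher and 0 lower. Over all probe sets, 1.23% were called lower and 1.66% higher, as given above. These lists too were chosen with earlier results of these data known, so the counts are descriptive and carry no test. The median difference was -0.00048 for the 20 semaphorins and 0.032 for the 9 plexins. Sema4g lay higher on the closed side, at 0.36, and did not pass (limma adjusted p = 0.0512). The Sema6a call was not stable, as given above.

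Most markers listed for the neuronal stages differed between the sides. On average over the genotypes, 8 of 10 markers of mature OSNs were called higher on the closed side, with a median of 0.28, and 7 of 9 markers of immature OSNs were called lower, with a median of -0.28, beside 1.66% higher and 1.23% lower of all probe sets. The mean level of the mature markers, centred over the 12 arrays, ran between 0.15 and 0.16 on the closed side and between -0.16 and -0.07 on the open side of KO mice, and between 0.06 and 0.15 on the closed side and between -0.15 and -0.11 on the open side of WT mice. That of the immature markers ran between -0.15 and -0.10 on the closed side and between 0.07 and 0.17 on the open side of KO mice, and between -0.19 and -0.08 on the closed side and between 0.13 and 0.16 on the open side of WT mice. Omp, the defining mature marker, differed by 0.03 (limma adjusted p = 0.910), and Gap43, the defining immature marker, by -0.28 (limma adjusted p = 0.0241). Like Omp, Rtp2 of the mature list and Dcx and Dpysl5 of the immature list were not called, at -0.03, 0.05 and -0.07. The average differences of the markers in the 2 lists ran between -0.42 and 0.40. The part of these neuronal stages in the differences of Sema7a, Sema3e, Sema6a, Limk1, Plxna4 and Plxnd1 was not tested.

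Of 4 measured progenitor markers, 1 (Neurod1) was called lower, at -0.27 (limma adjusted p = 0.0429). Of the other marker lists (horizontal basal cells, sustentacular cells, olfactory ensheathing glia, endothelium, stroma, respiratory ciliated cells, macrophages, cartilage and bone), 0 of the 39 measured genes were called by limma, 10 having an unadjusted p under 0.05 on average over the genotypes, beside 13.2% of all probe sets. On that average, 1.66% of all probe sets were called higher and 1.23% lower. Of the 10, 3 were among the 5 measured markers of olfactory ensheathing glia, whose median difference was -0.22. In that list 4 markers lay below 0 and 1 above, with Npy at -0.43 (limma adjusted p = 0.0532). Plxnd1 is known from endothelium. Of 6 endothelial markers, Cdh5 differed by 0.44 in KO mice, without overlap of the sides, and by 0.02 in WT mice and 0.23 on average (limma adjusted p = 0.086, 0.980 and 0.148), and Tie1 by 0.47, 0.21 and 0.34 (limma adjusted p = 0.433, 0.878 and 0.329). Both had an unadjusted limma p under 0.05 in KO mice and on average, while the other 4 (Pecam1, Tek, Emcn and Cldn5) differed by 0.00 to 0.13 on average. The mean of the 6 ran between -0.01 and 0.13 on the closed side and between -0.26 and 0.03 on the open side of KO mice, and between -0.14 and 0.31 on the closed side and between -0.06 and 0.06 on the open side of WT mice, and their median difference was 0.09. The part of endothelium in the Plxnd1 difference was not tested.

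**Figure D5:**
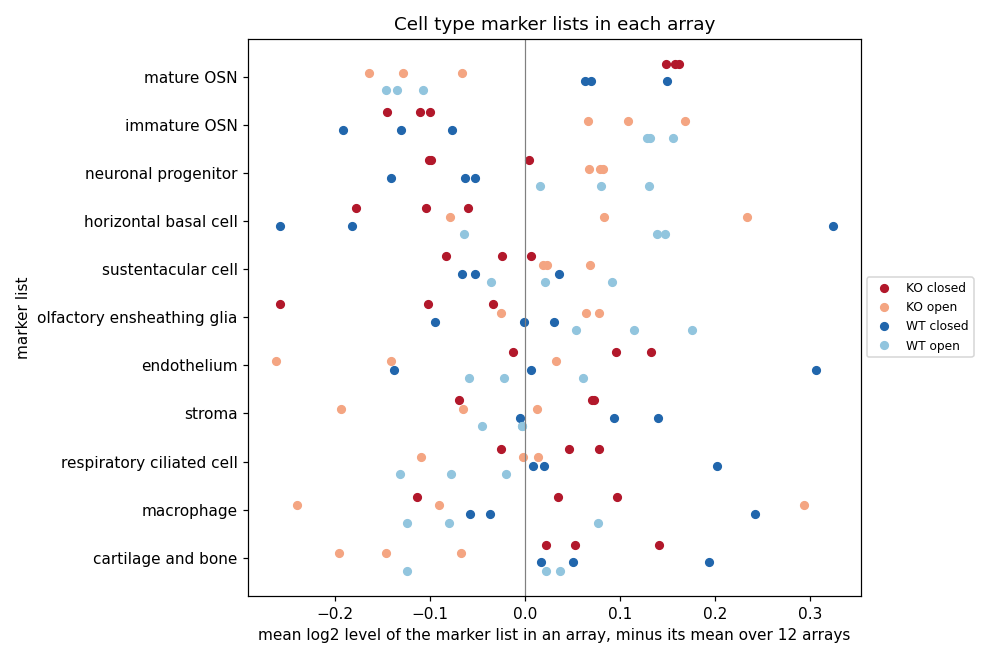
Mean log2 level of each cell type marker list in each array, minus its mean over the 12 arrays (x axis), with 1 point per array and the groups in colour. The mature OSN list is separated to the right on the closed side and the immature OSN list to the left, whereas the endothelial list overlaps between the sides.

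Over the 12 arrays, the probe sets most like Sema7a among 19381 genes above the filter were those of Trim45, Kcnmb3 and Ptprs, with r = 0.993, 0.991 and 0.991. Those most like Plxna4 were Atg2b, Dscam and Pde4a, with r = 0.989, 0.971 and 0.968. Because the arrays fall into an open and a closed cluster for these genes, the values describe a shared difference between the sides and carry no test.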

How the data were processed

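RNA of 12 MOE samples was labelled with biotin and hybridised to whole-transcript mouse arrays of Affymetrix. Sketch-quantile normalization and summarisation by IterPLIER were done by the authors in the Expression Console, and they deposited log2 values of 35556 probe sets, of which 0 were missing. The genome build behind the probe annotation is not given in the sources used here, and the number of arrays limits the precision. Symbols came from the platform's annotation, with 21789 probe sets carrying 1 symbol, 1621 several and 12146 none, and only the first kind named a gene.

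Probe sets with a mean log2 above 5 (32615) were fitted in R 4.3.3 with limma 3.58.1, as 1 mean per group with shared spread, and two-sided p-values were adjusted by Benjamini-Hochberg over all of them, with a threshold of 0.05. The median SE of a difference of 3 against 3 arrays was 0.134, so that its 95% interval reached 0.293 to either side. The scripts were tested on simulated data. Lists and members were chosen with earlier results of these data known. All 9 genes were named, as were the pathway genes called in any comparison and the 3 genes most correlated with each called member. Alternatives were other filters, variance models, array weights and normalizations, a replicate block, fits of the compared arrays alone, and each array left out in turn. Promoters came from RefSeq (GRCm38.p6). Python 3.11.15 and matplotlib 3.10.9 served for the figures.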

Additional observations from a re-analysis of the deposited data

How the results depend on the processing

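Sema7a kept its direction and its call in KO mice, in WT mice and on average under every alternative run, with values between -1.25 and -1.04 when each array was left out in turn. Counts that were 0 for the comparisons between genotypes and for the interaction stayed 0. Of the 9 members, 2 were called in KO mice, and 1 after median centring, with the replicate block, with the KO arrays alone and, in each case, without any 1 array, whereas 3 were called with a trended, robust variance, Plxna3 being the addition. On average 2 were called, 3 (with Sema3a) with a mean log2 above 7, and 5 with a trended, robust variance, where Sema3a, Nrp2 and Plxna3 passed too (limma adjusted p = 0.0372, 0.0436 and 0.0232). Of the pathway genes, 1 was called in WT mice, but 3 (Sema3e, Sema6a and Plxnd1) with a mean log2 above 7 or the trended, robust variance, and 0 with the WT arrays alone. In KO mice 1 or 2 were called when an array was left out, against 2. On average 4 were called, against 2 with the replicate block and 2 to 4 without an array. Limk1 was also lost with no filter (limma adjusted p = 0.052).

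Reversals concerned differences that did not pass. Plxna1 in KO mice turned to -0.024 with array weights and to -0.014 after median centring, and ran between -0.038 and 0.065 without an array. Plxnc1 on average turned to -0.00021 after quantile normalization and ran between -0.077 and 0.10 without an array, between -0.019 and 0.29 in KO mice and between -0.27 and 0.0056 in WT mice. Nrp1 in KO mice ran between -0.12 and 0.016. The cause was not tested.

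Replicate numbers are shared by the open and closed samples of a genotype, but nothing says that they mark the same mice. Deviations of same-numbered samples correlated across probe sets at 0.0528, 0.233 and 0.0256 in KO mice and at -0.00903, 0.169 and 0.0189 in WT mice. KO closed sample 1 correlated best with KO open sample 3 (0.127). WT closed samples 1 and 3 correlated best with WT open samples 3 and 1 (0.0739 and 0.0665). KO closed samples 2 and 3 and WT closed sample 2 correlated best with the open sample of their own number. With the replicate block, calls over all probe sets numbered 116 in KO mice, 97 in WT mice and 647 on average, against 341, 279 and 945 without it. The block ended the calls of Plxna4 in KO mice and of Sema6a and Limk1 on average (limma adjusted p = 0.147, 0.0565 and 0.118) and changed no other call of the 9 members, Sema3e, Sema6a, Plxnd1 and Limk1. Each member has a single probe set, so the second-highest probe set gave no value, and the average and the interaction need all arrays, so no fit of part of them was possible. Dim probe sets limit what could be detected, as for Plxnc1 at about 6 log2.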
